A study of Homo sapiens with 12 samples.

Results

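The 4 human genes that encode alkaline phosphatases, ALPP, ALPPL2 (now also named ALPG), ALPI and ALPL, were followed through lapatinib tolerance and resistance in BT474 cells. They were taken by symbol from the 26485 genes of the table, and all 4 were found. BT474 is an established HER2-positive breast cancer cell line, labelled as wild type, and lapatinib blocks the kinase activity of HER2 and EGFR. mRNA was sequenced from 4 groups with 3 libraries each: Control at day 0, drug-tolerant persisters (DTP) after 9 days, drug-tolerant expanded persisters (DTEP) after 6 months and long-term resistant cells (LR) after 9 months in 1 µM lapatinib. The treatment field of the Control libraries also reads lapatinib. Since their titles say Control and day 0, they were taken to be untreated. The study describes the libraries of a condition both as technical replicates and as parallel cultures, so every SD and p-value covers the spread between libraries, which may be technical, and a group may be 1 derivation. The family was chosen on the levels of ALPP in these same libraries, its rise from Control to DTP above all. The levels of the 4 genes are therefore a description and carry no test. Tests are reported only for other genes.

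Alkaline phosphatases are zinc enzymes that cleave phosphate monoesters on the outer face of the cell, to which a glycosylphosphatidylinositol (GPI) anchor holds them. ALPL is the tissue-nonspecific enzyme of liver, bone and kidney, which breaks down pyrophosphate during bone mineralization and dephosphorylates the circulating form of vitamin B6. ALPP is the placental enzyme of the syncytiotrophoblast, ALPPL2 the germ cell or placental-like enzyme, and ALPI the intestinal enzyme of the enterocyte brush border. Placental-type enzymes are also known as ectopic products of some carcinomas and of germ cell tumours.

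ALPP, ALPPL2 and ALPI lie in a row on chromosome 2 and are close copies of each other, and ALPL lies apart on chromosome 1. On GRCh38.p14, the build of the deposited values (hg38), ALPP (Entrez gene 250) spans chr2:232378751-232382889, ALPPL2 (251) chr2:232406844-232410714, ALPI (248) chr2:232456153-232460753 and ALPL (249) chr1:21508984-21578410, all on the plus strand. The coding sequences of ALPP and ALPPL2 were identical in 1563 of 1607 aligned columns (97.3%). ALPI shared 88.8% with ALPP and 89.1% with ALPPL2, and ALPL shared 64.9% to 65.0% with the other 3. Of all stretches of 50 bases in the ALPP transcript, 35.2% also occurred in the transcript of another gene, 26.5% in ALPPL2. At 100 bases these shares were 18.9% and 14.3%. Reads from such stretches cannot be placed on 1 gene, and the sources used here name the counter's default settings without spelling out how they treated such reads, so each value of ALPP and ALPPL2 is uncertain to that extent. No 50-base stretch of ALPL occurred in another gene.

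The 250 bases before the gene start are shown for the 3 genes of the chromosome 2 row. Those of ALPP and ALPPL2 are near copies, while the read counts of the genes differed widely. The 3 stretches are RefSeq promoters on GRCh38.p14, plus strand, and all 4 members had an entry. They lie at chr2:232378501-232378750 for ALPP, chr2:232406594-232406843 for ALPPL2 and chr2:232455903-232456152 for ALPI. Capitals mark bases that differ from ALPP or have no counterpart in it.
ALPP promoter: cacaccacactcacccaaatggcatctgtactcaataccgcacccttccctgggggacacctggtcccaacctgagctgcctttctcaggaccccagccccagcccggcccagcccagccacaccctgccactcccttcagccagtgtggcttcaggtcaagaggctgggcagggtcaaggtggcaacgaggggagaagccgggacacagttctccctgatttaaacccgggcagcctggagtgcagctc
ALPPL2 promoter: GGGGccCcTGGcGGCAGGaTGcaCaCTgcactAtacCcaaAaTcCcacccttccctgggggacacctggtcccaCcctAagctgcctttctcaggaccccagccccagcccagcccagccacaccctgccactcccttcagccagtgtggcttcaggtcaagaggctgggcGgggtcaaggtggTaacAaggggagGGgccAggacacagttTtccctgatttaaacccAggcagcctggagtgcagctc
ALPI promoter: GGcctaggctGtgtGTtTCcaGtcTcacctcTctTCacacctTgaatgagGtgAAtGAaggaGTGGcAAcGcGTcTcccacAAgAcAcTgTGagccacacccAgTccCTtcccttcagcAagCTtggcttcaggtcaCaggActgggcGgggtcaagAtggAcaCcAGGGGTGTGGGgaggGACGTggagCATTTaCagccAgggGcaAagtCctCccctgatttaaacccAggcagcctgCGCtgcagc
The ALPPL2 promoter matched that of ALPP in 216 of 256 aligned columns (84.4%), and in 92 of the last 100 bases. ALPI matched ALPP in 59.8% of columns, and the unprinted ALPL promoter in 50.7%. A search on both strands for 7 short motifs found TTTAAA, which resembles the TATA box, once in each of the chromosome 2 promoters, 30 bases before the start in ALPP and ALPPL2 and 28 bases in ALPI. AGGTCA, the core of many nuclear receptor sites, stood 96 bases before the start in ALPP and ALPPL2 and 119 bases in ALPI. Both motifs were absent from the ALPL window, and 11.4% and 12.1% of 27305 promoters held them. GGGCGG (42.3% of promoters) occurred in ALPPL2 and ALPI and not in ALPP or ALPL, and CACGTG (6.49%) occurred only in ALPL, at 2 places. TATAAA (11.1%), TGACTCA (4.16%) and GTAAACA (2.98%) had no match in any of the 4 windows. A match is a run of letters and not evidence of binding.

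The libraries held 16383363 to 25030482 assigned reads, so 1 read was worth 0.0412 to 0.0576 normalised read counts, and 0 reads allowed a level of up to 0.124 to 0.173 normalised read counts (3 reads, counting error only). Pearson's r across genes between the libraries of a group was 0.997 to 0.998 for Control and 0.983 to 0.996 for DTP. For DTEP it was 0.934 to 0.982, and for LR 0.971 to 0.984. The library labelled DTEP replicate 3 stood apart: its r was 0.971 to 0.986 with the LR libraries and 0.934 to 0.962 with the other DTEP libraries. The breast luminal label was met, since all 7 luminal markers (KRT8, KRT18, KRT19, EPCAM, CDH1, ERBB2 and GATA3) were expressed in every library. Their summed level lay between 10520 and 11263 in Control and between 12878 and 15300 in DTP. It was lower later, between 4240 and 6171 in DTEP and between 3991 and 5450 in LR. ERBB2 made up most of this sum in Control and DTP but not in DTEP or LR, where it was at most 2103 and 1897. CDH1 was at 1094 to 1146 in Control and 88.9 to 150 in DTEP, and KRT8 at 936 to 1036 and 269 to 517. KRT18 and KRT19 overlapped between these groups. GATA3 and EPCAM went the other way: GATA3 was at 183 to 198 in Control and 943 to 1311 in DTEP, and EPCAM at 196 to 212 and 266 to 363.

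ALPP carried nearly all of the alkaline phosphatase signal of the series, and nearly all of it in DTP. Its normalised read counts were 0.460, 0.217 and 0.559 in the Control libraries (26 reads in all) and 90.3, 83.2 and 72.7 in the DTP libraries (4678 reads). In DTEP they were 20.9, 5.81 and 0.337 in replicates 1, 2 and 3 (436, 141 and 6 reads), and in LR 0.0422, 0 and 0 (1 read). Thus the group order was DTP, DTEP, Control, LR, with means of 82.1 ± 8.89, 9.00 ± 10.6, 0.412 ± 0.176 and 0.0141 ± 0.0244 (SD, n = 3). The DTP libraries lay above all 9 others and the LR libraries below all 9 others. DTEP and Control overlapped, because DTEP replicate 3 fell between the Control libraries while the other DTEP libraries lay above them.

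The mean level of ALPP in DTP was 199 times that in Control. The ratio of pooled reads was 209, with a 95% interval of 142 to 320 that covers counting error only. DTP exceeded DTEP 9.12 times (pooled 9.69, counting interval 8.89 to 10.6), and the spread inside DTEP was larger than its own mean. Against LR, where a single read was counted, the pooled ratio of Control was 26.5 with a counting interval of 4.36 to 1088, and that of DTP 5545 with an interval of 995 to 219053. On the log2(value + 1) scale the mean difference was 5.88 from Control to DTP, -3.83 from DTP to DTEP and -2.53 from DTEP to LR. Without DTEP replicate 3 the latter differences were -2.76 and -3.59. In bulk RNA, fewer cells with a transcript and less transcript per cell cannot be told apart.

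**Figure D1:**
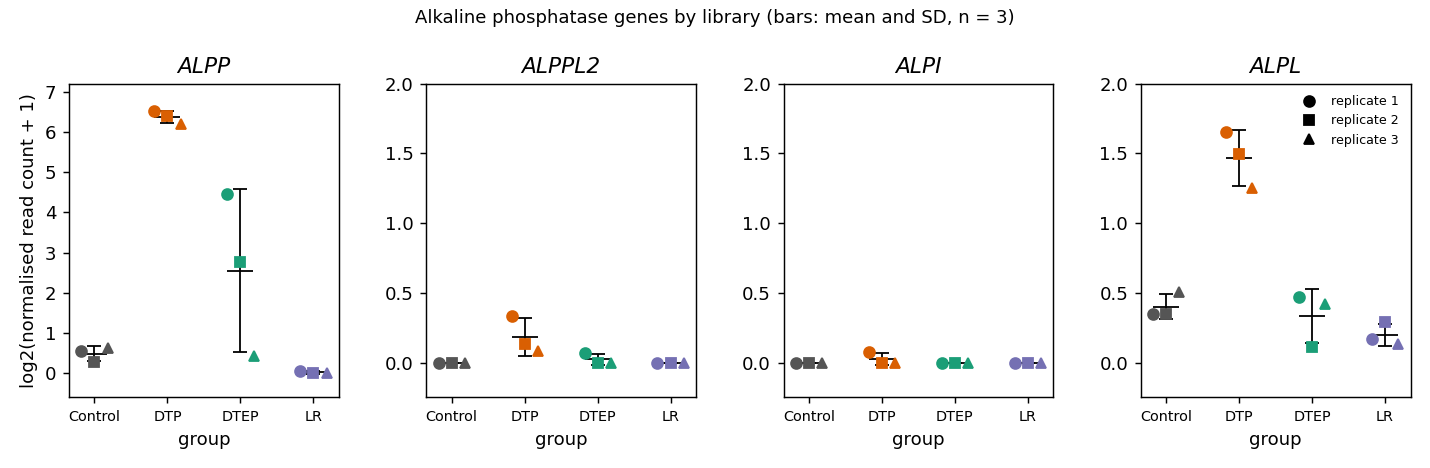
Levels of the 4 alkaline phosphatase genes as log2(normalised read count + 1) in each of the 12 libraries, by group, with the mean and SD (n = 3) and a wider vertical axis for ALPP. ALPP stands at 72.7 to 90.3 normalised read counts in DTP, spreads from 0.337 to 20.9 in DTEP and is near 0 elsewhere, and ALPL peaks in DTP at 1.38 to 2.14.

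ALPPL2 and ALPI were hardly read in any group, next to a strongly expressed copy. ALPPL2 stood at 0.261, 0.0987 and 0.0576 normalised read counts in the DTP libraries (5, 2 and 1 reads), at 0.0478, 0 and 0 in DTEP (1 read), and at 0 in all Control and LR libraries. Its DTP libraries lay above the others, but the level was at or near the limit that 0 reads allow. Of the reads given to ALPP or ALPPL2 in DTP, ALPPL2 received 0.288% of 1736 (exact binomial 95% interval 0.0936% to 0.671%), 0.119% of 1687 (0.0144% to 0.428%) and 0.0792% of 1263 (0.00200% to 0.440%). These 3 intervals overlap. ALPI, the intestinal gene, had 1 read, in DTP replicate 1 (0.0522 normalised read counts), and 0 in the other 11 libraries.

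ALPL, the tissue-nonspecific gene, was low throughout and also highest in DTP. Its normalised read counts were 0.276, 0.272 and 0.419 in the Control libraries (20 reads) and 2.14, 1.83 and 1.38 in the DTP libraries (102 reads). The DTEP libraries held 0.383, 0.0824 and 0.337 (16 reads), and the LR libraries 0.127, 0.221 and 0.0969 (9 reads). Means were 0.322 ± 0.0840, 1.78 ± 0.381, 0.267 ± 0.162 and 0.148 ± 0.0650 (SD, n = 3). The DTP libraries lay above the other 9. Control and LR did not overlap, although their pooled ratio of 2.27 had a counting interval of 0.988 to 5.66, and DTEP overlapped both. DTP stood 5.53 times above Control (pooled 5.92, counting interval 3.64 to 10.1) and 6.67 times above DTEP (pooled 7.70, 4.52 to 14). The mean log2(value + 1) differences were 1.07, -1.13 and -0.14 over the 3 steps. At such low values they depend on the constant that is added: edgeR on the recovered reads gave 2.44, -2.75 and -0.81.

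Of the 4 genes, ALPP and ALPL reached the filter of at least 1 normalised read count in at least 3 libraries, and ALPL did so only through DTP, where it is highest. Counted in reads, ALPP made up 44.4% to 62.5% of the alkaline phosphatase reads in the Control libraries and 97.4% to 98.1% in DTP. It made up 98.0% and 98.6% in DTEP replicates 1 and 2, and 6 of the 12 reads in replicate 3. ALPL gave most of the few reads of LR. Per kilobase of transcript, the ALPP level (normalised read count per kb) in DTP was 29.8 ± 3.23 and that of ALPL 0.703 ± 0.150 (SD, n = 3). The ratio of the mean per-kilobase levels of ALPP to ALPL went from 1.18 in Control to 42.4 in DTP. It stood at 31 in DTEP and 0.0874 in LR. The DTP ratio was 40.3 to 44.7 with each DTP library left out. The other ratios rest on few ALPL reads, and that of DTEP was 13.5 without replicate 1, 27.1 without replicate 2 and 52.8 without replicate 3.

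**Figure D2:**
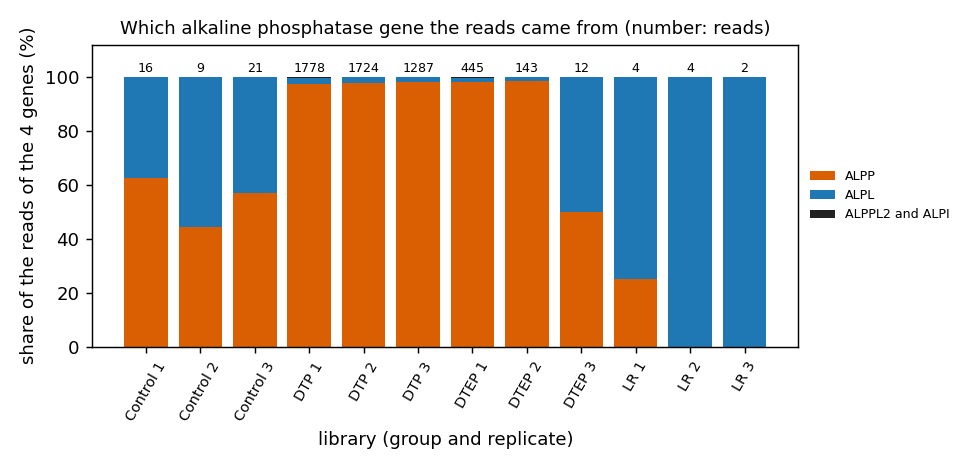
Share of the reads of the 4 genes (percent, vertical axis) that came from each gene in each library, with the number of reads above each bar. ALPP takes 97.4% to 98.1% in DTP and 98.0% and 98.6% in DTEP replicates 1 and 2, and ALPL takes 75.0% to 100% in the LR libraries, which hold 2 to 4 reads.

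The genes whose profile was most like that of ALPP were sought by Pearson's r over the 12 libraries on log2(value + 1). The 6 most alike of 13793 genes were SCNN1G (r = 0.998), PSG4 (0.993), TMEM186 (0.991), LRRC32 (0.985), LINC01311 (0.985) and SCNN1B (0.982). The median r over all genes was 0.0204, and 66 genes exceeded 0.95. The points fall into 4 groups, so r mostly restates the shared order of the groups, and no test was made. SCNN1G and SCNN1B encode the gamma and beta subunits of the epithelial sodium channel and are neighbours on chromosome 16 (chr16:23182745-23216883 and chr16:23278231-23381294). SCNN1G stood at 7.41, 6.22 and 5.93 normalised read counts in DTP and 3.25, 1.11 and 0.112 in DTEP. Its Control libraries held 0.230, 0.109 and 0.140, and LR at most 0.0484. SCNN1B stood at 3.44, 3.65 and 3.40 in DTP and 2.54, 1.73 and 0.112 in DTEP. PSG4, a pregnancy-specific glycoprotein that, like ALPP, is known from the syncytiotrophoblast, stood at 57.4, 61.2 and 64.1 in DTP and 12.3, 6.30 and 0.337 in DTEP. In all 3, as in ALPP, replicates 1 and 2 of DTEP lay between DTP and Control and replicate 3 lay within or below the Control range. TMEM186 spanned a narrow range, with 17.8 ± 0.472 in Control and 35.0 ± 1.58 in DTP. LRRC32, a cell surface docking receptor of latent TGF-beta, stood at 0.0800 ± 0.0519 and 3.78 ± 0.395 in the same groups (SD, n = 3). These are values and carry no test here.

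For ALPL the same search gave other genes at the top. The 6 most alike were C11orf68 (r = 0.991), COQ4 (0.989), ACRBP (0.986), GABARAP (0.985), LOC388882 (0.984) and CYP21A1P (0.982), none of which is among the 6 for ALPP. For ALPL 189 genes exceeded 0.95. The r between ALPP and ALPL was 0.869, where the 95% quantile over all genes was 0.847 for r with ALPP and 0.894 for r with ALPL. COQ4, needed for coenzyme Q synthesis, stood at 49.3 ± 2.53, 98.9 ± 15.8, 43.4 ± 6.61 and 43.9 ± 0.827 through Control, DTP, DTEP and LR (SD, n = 3). GABARAP, an autophagosome protein, stood at 154 ± 3.10, 408 ± 48.2, 167 ± 32.9 and 150 ± 8.35 in the same order. In all 6, DTEP replicate 3 was at or above replicate 2, whereas in ALPP it was the lowest DTEP library.

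**Figure D3:**
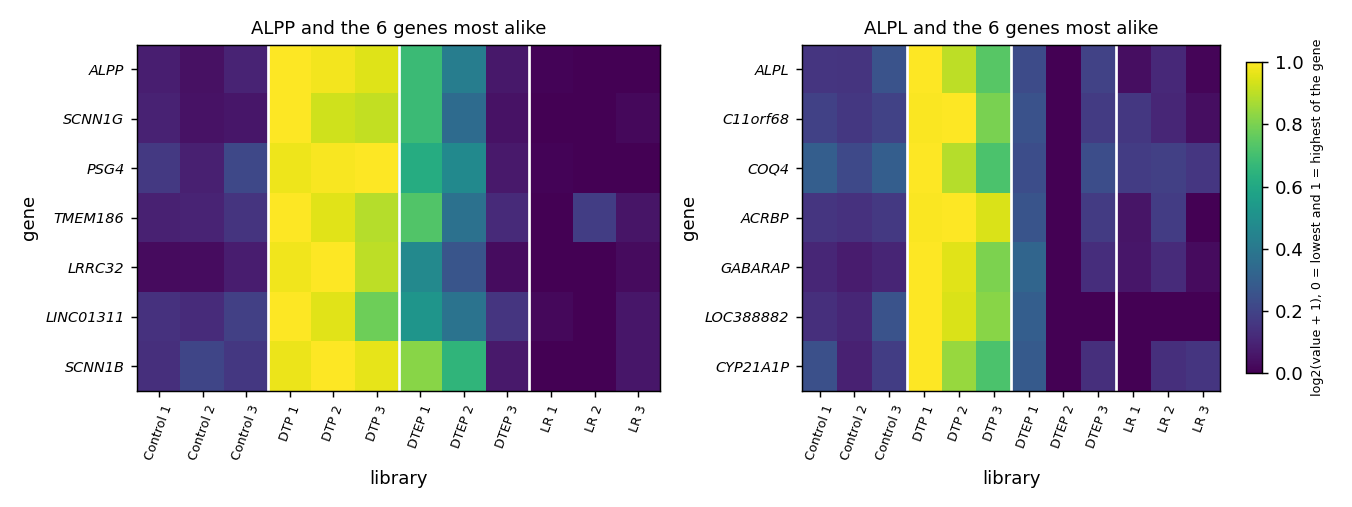
Profiles of ALPP (left) and ALPL (right) with the 6 genes most alike, over the 12 libraries, as log2(value + 1) rescaled for each gene from 0 (its lowest library) to 1 (its highest). In every row of the ALPP panel DTEP replicate 1 is the highest and replicate 3 the lowest DTEP library, whereas in the ALPL rows DTEP replicate 2 is the lowest DTEP library or shares that place.

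Around ALPP, KCNJ13 was the 1 tested neighbour that passed the thresholds, and it was high in DTP as ALPP was. The table holds 18 genes whose start lies within 500 kb of that of ALPP, ALPPL2 and ALPI among them, and 9 passed the filter. In DTP against Control 1 of the 9 was called higher (limma, with an adjusted p under 0.05 and a log2 change past 2 either way), where 1.01% of all 13794 tested genes were called higher and 3.9% lower. This was KCNJ13, a potassium channel gene 387 kb from ALPP that lies within the span of GIGYF2. Its normalised read counts were 1.56, 2.55 and 2.0 in Control, 15.9, 19.7 and 24.8 in DTP and 3.92, 1.65 and 2.69 in DTEP, and the LR libraries held 4.31, 7.19 and 2.23. It rose by 2.79 ± 0.33 (log2 change ± SE, limma adjusted p = 3.68e-05) in DTP and fell by 2.52 ± 0.33 (adjusted p = 2.66e-05) in DTEP, a comparison that shares the DTP libraries, in which 8.13% of all tested genes were called higher and 7.02% lower. Its LR libraries, at 2.23 to 7.19, overlapped Control and did not lie below it as those of ALPP did.

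The other neighbours changed by less than the threshold in limma. All 9 tested neighbours were nonetheless lower in DTEP than in DTP, with log2 changes of -2.52 to -0.32. Their median was -1.14, beside 0.08 for all tested genes. From Control to DTP the changes ran from -0.21 to 2.79, with a median of 0.28, beside -0.01. No test was made over the neighbours as a set. TIGD1, a transposase-derived gene, had log2 changes of 1.51 in DTP and -1.58 in DTEP, and NPPC, which encodes C-type natriuretic peptide, 1.14 and -1.14. NPPC is low, at 1.21 to 1.51 in DTP and at most 0.186 elsewhere, so it reached the filter only through DTP, where it is highest. It passed the thresholds in both comparisons in edgeR, in DESeq2 and with a pseudocount of 0.1, as did ECEL1 in DTEP (-1.22 in limma). ECEL1P2, a transcribed pseudogene whose start lies 7.0 kb from that of ALPP, was too low to test, with 33 reads. It stood at 0.731, 0.346 and 0.288 normalised read counts in DTP, 0.239, 0.0824 and 0 in DTEP and 0 in all Control and LR libraries, the same order of libraries as ALPP within DTP and DTEP. From DTEP to LR no neighbour of the 9 was called, with log2 changes of -0.31 to 0.61, where 0.225% of all genes were called higher and 0.457% lower. Around ALPL, 5 of 9 neighbours passed the filter and none was called by limma in any of the 3 comparisons.

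**Figure D4:**
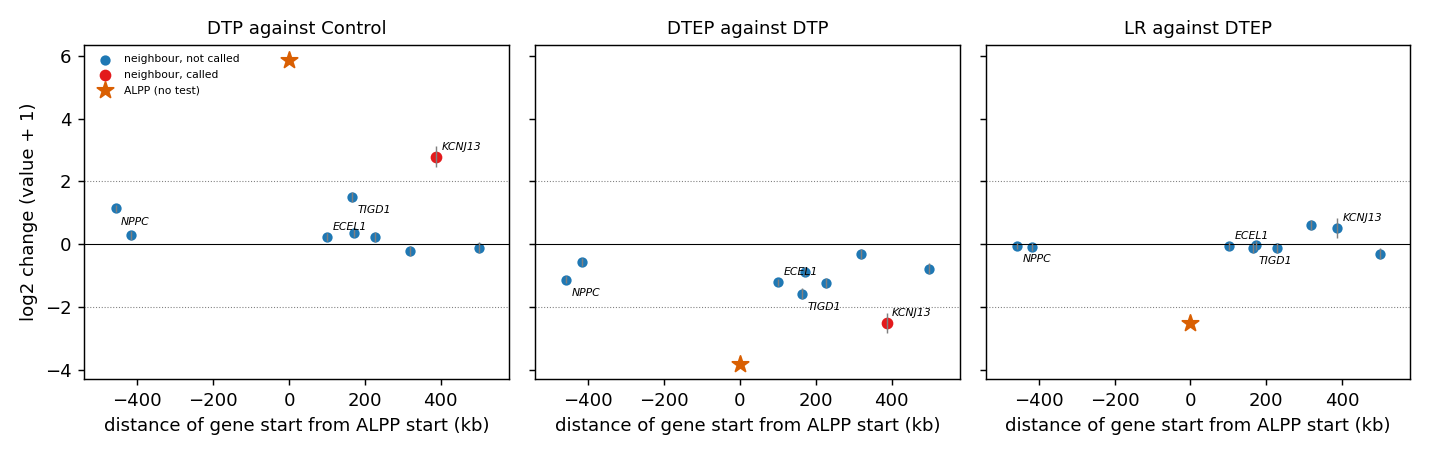
Log2 change (value + 1) of the 9 tested genes near ALPP against the distance of their start from that of ALPP (kb), for the 3 comparisons, with SE bars, dotted lines at the threshold of 2 and a star for ALPP, for which no test is reported. KCNJ13 is called in DTP (2.79) and in DTEP (-2.52), and the other neighbours stay between the dotted lines.

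Genes of the pathways around these enzymes were read from 9 lists with 159 genes, of which 86 were tested. In DTP against Control 3 of the 86 were called higher (3.49%, beside 1.01% of all genes) and 3 lower (3.49%, beside 3.9%). In DTEP against DTP 4 were called higher (4.65%, beside 8.13%) and 9 lower (10.5%, beside 7.02%). In LR against DTEP none was called higher and 2 were called lower (2.33%, beside 0.457%). At an unadjusted p below 0.05, 7 of the 86 were higher and 25 lower in LR in limma. The share of all genes at this p was not computed, so these counts cannot be read as a shift of the lists. By adjusted p alone 3 were higher and 7 lower, where 3.04% and 4.31% of all tested genes were. On the recovered reads edgeR called 1 list gene higher, ENPP3, and 10 lower. DESeq2 also called ENPP3 higher, and it called 9 list genes lower. Over all genes edgeR called 66 higher and 539 lower, and DESeq2 74 and 624. The median log2 change of the 86 was -0.06, -0.20 and -0.22 over the 3 steps, beside -0.01, 0.08 and -0.07 for all tested genes. All values for named list genes are from limma with Benjamini-Hochberg adjustment over all 13794 genes.

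Of the 9 tested mineralization and phosphate genes none was called in DTP. ENPP1, which makes the pyrophosphate that ALPL degrades, had values of 120, 118 and 111 in Control and 43.7, 50.9 and 57.4 in DTP, a log2 change of -1.19 that did not reach the threshold. PHOSPHO1, a phosphatase of matrix vesicles, had low values of 3.04, 2.88 and 3.77 in Control and 0.157, 0.0987 and 0.346 in DTP. Its log2 change of -1.82 (adjusted p = 2.65e-06) missed the threshold on the scale with 1 added. PHOSPHO1 reached the filter only through Control, where it is highest. XPR1, the phosphate exporter, rose from 19.0, 20.8 and 30.5 in DTP to 86.7, 111 and 92.2 in DTEP (2.02 ± 0.17, adjusted p = 8.15e-07). This call lay at the threshold and was lost without DTEP replicate 2, DTP replicate 1 or DTP replicate 2, with log2 changes from 1.89 to 2.22 over the libraries left out. None of the 5 vitamin B6 genes and none of the 4 tested acid phosphatases was called by limma in any of the 3 comparisons. Their log2 changes ranged from -0.89 to 1.58 and from -1.76 to 1.06.

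Among 10 tested genes of extracellular nucleotide and adenosine handling, to which alkaline phosphatases add by cleaving AMP, 1 was called higher in DTP, and 2 were called higher and 2 lower in DTEP. ENTPD1 (CD39), which removes phosphate from ATP and ADP, stood at 2.67, 2.88 and 3.31 in Control, 16.1, 18.1 and 18.4 in DTP and 5.17, 3.21 and 0.449 in DTEP. Its LR libraries held at most 0.194. It rose by 2.23 ± 0.39 in DTP (adjusted p = 0.000532) and fell by 2.46 ± 0.39 in DTEP (adjusted p = 0.000124). Without DTEP replicate 3 the second change was -1.86 and not called. ENTPD3, a related enzyme, fell in DTEP by 2.22 (adjusted p = 5.48e-07), and ENTPD2 rose by 3.47, from 6.37, 4.54 and 5.13 to 83.7, 73.2 and 53.0 (adjusted p = 2.86e-08). ADORA1, an adenosine receptor, rose by 3.10 ± 0.88 in DTEP (adjusted p = 0.00766), with values of 38.4, 31.8 and 2.97, so replicate 3 again stood apart. NT5E (CD73), another enzyme that makes adenosine from AMP, had its highest values in DTP (1.41, 2.22 and 2.13, against 0.512 to 0.924 in Control) and was not called (log2 changes of 0.74 and -1.35). NT5E reached the filter only through DTP.

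The machinery that attaches the GPI anchor was expressed and mostly below the threshold. Of 32 genes 30 were tested, none was called in DTP by limma, where 16 passed the adjusted p alone (54.0% of all tested genes did), and 1 was called in DTEP. This was PGAP3, a lipid remodelling enzyme of the anchor whose gene lies beside ERBB2 on chromosome 17. It stood at 570, 555 and 606 in Control, 1735, 1535 and 1259 in DTP and 159, 75.9 and 41.5 in DTEP, and fell by 4.22 ± 0.36 in DTEP (adjusted p = 8.53e-07). ERBB2 itself, a luminal marker, ranged from 7917 to 9136 in DTP and from 1244 to 2103 in DTEP.

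Other proteins that carry a GPI anchor went in both directions in DTP and were mostly lower in DTEP. Of 21 tested, 1 was called higher and 2 lower in DTP, and 1 higher and 4 lower in DTEP. By adjusted p alone, 9 were higher and 6 lower in DTP, where 25.2% and 28.8% of all tested genes were. In DTEP 2 were higher and 15 lower, where 35.7% and 32.6% of all tested genes were. The median log2 change of the 21 was 0.48 in DTP and -0.99 in DTEP. CD55, a complement inhibitor, rose in DTP from 10.8, 11.3 and 12 to 63.4, 69.5 and 72.6 (2.49 ± 0.17, adjusted p = 5.95e-07) and stood at 40.9 to 63.3 in DTEP. The adhesion molecules CEACAM6 (log2 change -2.98, adjusted p = 3.82e-06) and CEACAM5 (-2.24, adjusted p = 1.54e-06) fell in DTP. CEACAM5 reached the filter only through Control, where it is highest, so the filter favoured a fall from Control. CEACAM6, GFRA1, PSCA and GPC6 fell in DTEP, with log2 changes of -4.13, -4.56, -2.41 and -2.26, and PSCA lost its call without DTEP replicate 3 (-1.88). BST2, an antiviral tether, went from at most 0.0522 in DTP to 282, 242 and 154 in DTEP (7.73 ± 0.25, adjusted p = 5.33e-10). GFRA1, the co-receptor of the neurotrophic factor GDNF, fell again in LR by 3.00 ± 0.67 (adjusted p = 0.0278), from 33.6, 8.44 and 1.29 to at most 0.291. Of the 12 fits that each left out a library, 9 kept this call, and it was lost when LR replicate 1, LR replicate 2 or DTEP replicate 2 was missing.

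Most genes of the tissues in which the chromosome 2 enzymes are normally found were silent or very low. Of 25 placental trophoblast markers 3 were tested, and 14 had at most 3 reads in every library, CSH1, CYP19A1, INSL4, PSG1 and PSG3 among them. PSG4 was the 1 gene of the list called higher in DTP (5.00 ± 0.60, adjusted p = 4.46e-05), from 1.01, 0.435 and 1.49 in Control. The other tested markers of the list did not follow it: SDC1, which made up most of the summed level of the list and is also an epithelial gene, had a log2 change of -0.35 in DTP (adjusted p = 0.0862), and TFPI2 of -0.94 (adjusted p = 5.72e-05). PSG4 fell by 3.61 ± 0.60 in DTEP (adjusted p = 0.000205) and fell by 2.32 ± 0.60 in LR (adjusted p = 0.0424). The last call was kept in 1 of the 12 fits that left out a library, the fit without DTEP replicate 3, with log2 changes from -3.28 to -1.62. PSG4 belongs to a cluster of near-identical genes, so reads may have been split among them. PSG5 and PSG9 had their highest values in DTP too, 0.395 to 0.921 and 0.403 to 0.626, too low to test. Of 19 intestinal markers 4 were tested. In DTP 2 of the 4 were higher and 2 lower by adjusted p alone, where 25.2% and 28.8% of all tested genes were. Their log2 changes in DTP ranged from -2.16 to 1.63. LCT (lactase) fell in DTP by 2.16 ± 0.21 (adjusted p = 8.66e-06), a call lost without DTP replicate 2 (-1.99). LGALS4 fell in DTEP by 2.05 ± 0.19 (adjusted p = 1.74e-06), a call lost without DTEP replicate 3 (-1.88). LGALS4 reached the filter only through DTP, where it is highest, so the filter favoured a fall from DTP. None of 11 germ cell tumour markers reached the filter, 8 with at most 3 reads in every library.

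**Figure D5:**
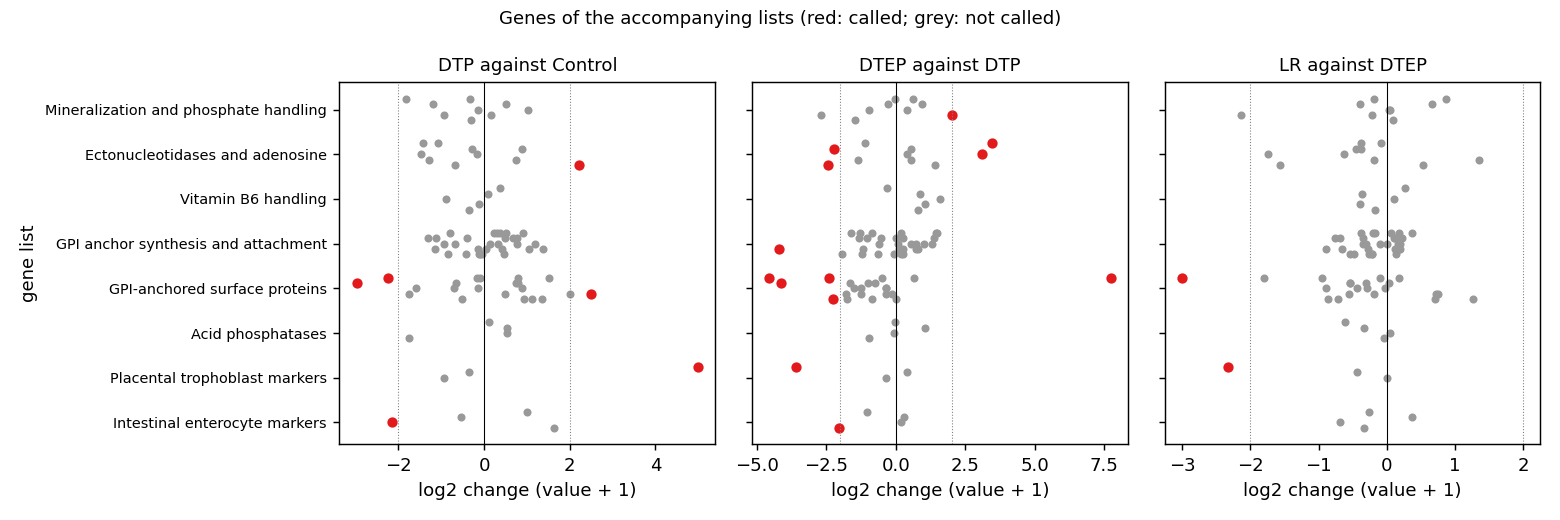
Log2 change (value + 1) of the 86 tested genes of the 9 lists in the 3 comparisons, each point a gene, with called genes in red and dotted lines at the threshold of 2; the germ cell list had no tested gene and is not drawn. PSG4 (5.00) is the highest point in DTP, and BST2 (7.73) and GFRA1 (-4.56) are the extremes in DTEP.

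Markers of other cell types, among them cells that carry ALPL in the body, were read in the same libraries. Of 6 leukocyte markers 1 passed the filter, FCGR3B was at 0 in all 12 libraries and PTPRC at most 0.0920. Their summed level was lowest in DTP, where ALPL was highest, at 0.173 to 0.395, beside 0.707 to 1.01 in Control and 0.533 to 1.61 in LR. DTEP libraries reached 17.9, of which CSF3R and S100A8 made up most. Of 5 fibroblast or osteoblast markers COL1A1 was the 1 tested, at 48.1 to 59.2 in DTP and 98.4 to 130 in LR, and COL1A2, COL3A1 and DCN had at most 3 reads in every library. The 4 endothelial markers summed to 8.14 to 8.94 in Control, nearly all VWF, and to 2.19 to 2.66 in DTP. Any part of these other cell types in the levels of ALPP and ALPL was not tested.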

How the data were processed

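mRNA of 12 BT474 libraries was profiled, grouped by the sample labels. The authors made stranded libraries, aligned the reads with Rsubread (genome hg38) and counted them over RefSeq genes. The counter's default settings ignore the strand, so overlapping and antisense genes may share reads. Read length is not given in the sources used here, which name default settings for the counting and do not spell out the handling of reads that fit several genes. The deposited table holds a normalised signal per gene and library, which the authors made with edgeR. Each of the 199680 values above 0 (100%) was a whole multiple of what 1 read is worth in its library (tolerance 1e-06), so whole reads were recovered, and the scale equalled CPM with TMM factors. Depth was 16383363 to 25030482 assigned reads. The 26485 genes include 6104 without a read.

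Differences were tested in R 4.3.3 with limma 3.58.1, with a variance trend, on log2(value + 1), over all 12 libraries and without covariates, for the 13794 genes at 1 or above in at least 3 libraries. Calls needed a Benjamini-Hochberg adjusted p under 0.05 together with a log2 change past 2 either way. All tests were two-sided. ALPP and ALPL are among the 13794 genes of the fit and of the shares of all genes, but their tests are not reported. Folds on this scale understate the change of low genes. Counting intervals are at 95%, Clopper-Pearson, and leave out all error but counting, as no molecular identifiers were used.

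The members, lists and alternatives were chosen with earlier results of these data known. Named genes were the 4 members, the 6 tested genes most alike to each member that passed the filter, called list genes (all where a list had at most 6 calls), and genes within 500 kb of ALPP or ALPL. Other values given are markers and uncalled list genes picked for their role, some after their values were seen. Alternatives were other pseudocounts, filters and scaling, no trend, the 6 libraries compared alone, each library left out, a replicate block, and edgeR 4.0.16 and DESeq2 1.42.0 on recovered reads. No protein sequences are shown, and a stretch of coding sequence is not reported here. Groups of 3 libraries were too small for the test of single outlying samples.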

Additional observations from a re-analysis of the deposited data

How the results depend on the processing

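No log2 difference of the 4 members and no log2 change of KCNJ13 or of a called list gene changed sign under the alternatives that could be fitted. For ALPP, the log2 difference of DTP from Control (5.88) was 7.39 with a pseudocount of 0.1, 6.51 with 0.5, 7.59 in edgeR and 7.68 in DESeq2, and 5.78 to 5.96 with each library left out. That of DTEP from DTP was -4.78 to -2.76 with each library left out. That of LR from DTEP (-2.53) was -5.07 with a pseudocount of 0.1, -8.67 in edgeR, -8.97 in DESeq2 and -3.59 to -1.57 with each library left out. For ALPL, the differences of DTP from Control and of DTEP from DTP were 2.15 and -2.46 with a pseudocount of 0.1, 2.44 and -2.75 in edgeR and 2.51 and -2.88 in DESeq2.

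Of the list genes, 3 called higher in DTP became 6 with a pseudocount of 0.1, in edgeR and in DESeq2 (3 to 4 with each library left out). The 3 called lower became 8, 8 and 7 in these settings and 1 under the filter that needs a mean value of 5 (2 to 3). In DTEP, 4 called higher stayed at 3 to 5 with each library left out, and 9 called lower became 14, 17 and 16 with a pseudocount of 0.1, in edgeR and in DESeq2 (7 to 12, and 7 without DTEP replicate 3). In LR, 0 called higher became 1 in edgeR and in DESeq2 (0 with each library left out). The 2 called lower became 4 with a pseudocount of 0.1 or 0.5, 1 without a filter, 0 with the 6 libraries alone, 10 in edgeR and 9 in DESeq2, and 0 to 6 with each library left out: 6 without DTEP replicate 3, 0 when LR replicate 1, LR replicate 2 or DTEP replicate 2 was missing, and 1 without DTEP replicate 1, each Control or each DTP library. Counts over all genes moved too. In DTP, 140 called higher became 367, 449 and 475 with a pseudocount of 0.1, in edgeR and in DESeq2. The 538 called lower in DTP became 814, 838 and 797 in these settings, and 492 under the filter at a mean of 5. In DTEP, 969 called lower became 1675, 1694 and 1796 in the same settings. In LR, 63 genes were called lower in the reported fit, 539 in edgeR, 624 in DESeq2, and 264 and 114 with pseudocounts of 0.1 and 0.5. The LR count was 32 without a filter, 0 with the 6 libraries alone, 213 without DTEP replicate 3 and 3 without DTEP replicate 2. DESeq2 gave no p for GFRA1 and GPC6, which its counts leave out. The causes were not tested.

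The deviations of same-numbered libraries from their group means had r of -0.441 to 0.359, with 2 of 18 pairs over 0.1. These were DTP with DTEP in replicates 1 and 3 (0.359 and 0.335). Libraries with different numbers were not compared, so whether the numbers pair the libraries was not settled. A replicate block left 1 list gene called lower in LR (51 over all genes) and moved no other count of list genes by over 1.5 times. Another scaling shifted the median of all genes by 0.036, -0.10 and 0.031 over the 3 steps.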
